A study of Rattus norvegicus with 4 samples.

Results

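The lateral and the ventral lobe of the prostate were compared by their microRNAs (miRNAs) in untreated male TRAP rats, that is, in the pair of arrays from animals given saline. The members were the 2 arrays of this pair among the 4 arrays of the series, each with 679 probes for rat miRNAs and a single spot per probe. TRAP rats are a transgenic model of prostate cancer, known from outside the labels to express a viral large T antigen in prostate epithelium from the probasin promoter. All arrays came from TRAP rats, so tumour-prone epithelium was common to every sample and wild type lobes were not analysed here. The groups were lateral prostate under saline, ventral prostate under saline, lateral prostate under OBP-801 and ventral prostate under OBP-801, each with 1 array of total RNA labelled with the dye Hy5. OBP-801, which inhibits histone deacetylases, or saline was injected intravenously 2 times a week for 8 weeks from an age of 6 weeks, on a control diet. The treatment protocol gives the OBP-801 dose as 1 mg per kg, while the agent label gives 1 mg. The labels give no number of rats behind an array, and whole lobes were used, so epithelium, muscle, blood vessels and immune cells all add to a value. With 1 array a lobe there was no replicate and no test of the saline difference, and the OBP-801 pair, which shares no array with the saline pair, is given beside it.

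MiRNAs are short RNAs that guide a silencing complex to messenger RNAs, mainly by pairing of their seed, bases 2 to 8 from the 5′ end. Several of them mark cell lineages: miR-1, miR-133 and miR-206 striated muscle, miR-143 and miR-145 smooth muscle and fibroblasts, miR-223 and miR-142 blood leukocytes, and the miR-200 family epithelium. In the rat the lateral and ventral lobes are separate androgen-dependent glands of secretory epithelium within a stroma of smooth muscle and fibroblasts.

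The mature sequences below, from RefSeq with the GRCr8 annotation, have the seed in capitals, so that shared seeds can be seen. They are those of miRNAs at least 1.5-fold apart under saline, with others set beside them. MiR-206, miR-145, miR-195, miR-497 and miR-16 were less than 1.5-fold apart, and miR-1 was detected in lateral prostate only. Of 44 miRNAs looked up, 40 had a RefSeq sequence, and miR-200a, miR-200b, miR-429 and miR-30e* are named only. The first set holds the striated muscle miRNAs, as 2 seed pairs.
miR-133b: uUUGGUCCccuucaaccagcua
miR-133a: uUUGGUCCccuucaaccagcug
miR-1: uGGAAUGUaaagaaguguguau
miR-206: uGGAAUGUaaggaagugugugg
The mature forms of miR-133a and miR-133b differ by 1 base (G22A, counted from the 5′ end of miR-133a), and miR-1 and miR-206 by 3 (A11G, A21G and U22G). The next set holds the smooth muscle pair, which share a host transcript and no seed, followed by miR-195 and miR-497, neighbours on chromosome 10 that share their seed with miR-16.
miR-143: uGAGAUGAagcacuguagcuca
miR-145: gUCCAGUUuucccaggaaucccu
miR-195: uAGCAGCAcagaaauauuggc
miR-497: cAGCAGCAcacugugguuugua
miR-16: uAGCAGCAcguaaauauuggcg
MiR-195 differs from miR-16 over their first 21 bases by G10A and U11G. The other miRNAs at least 1.5-fold higher in lateral prostate and found in RefSeq were miR-10b, miR-204, miR-28, miR-200b* and let-7c, the last shown here beside let-7a.
miR-10b: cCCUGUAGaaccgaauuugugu
miR-204: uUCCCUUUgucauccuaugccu
miR-28: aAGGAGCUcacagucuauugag
miR-200b*: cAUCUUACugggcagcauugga
let-7c: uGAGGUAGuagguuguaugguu
let-7a: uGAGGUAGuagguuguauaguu
Let-7a and let-7c differ by the substitution A19G. Lower in lateral prostate were the following, of which miR-146a and miR-146b share a seed.
miR-223: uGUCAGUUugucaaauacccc
miR-34a: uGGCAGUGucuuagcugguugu
miR-146a: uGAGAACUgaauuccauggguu
miR-146b: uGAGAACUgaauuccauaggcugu
Over the 22 bases of miR-146a, miR-146b differs by G18A and U21C. Probes for near-identical forms can bind each other's target, and the cross-reaction of these probes was not tested.

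A miRNA was counted as detected when its median spot signal in the red channel was above the mean plus 2 SD of the blank spots of the same array. That limit was 124.6 units in lateral saline and 123.9 in ventral saline, beside negative control spots that averaged 111.6 and 110.0. In lateral prostate 290 of 679 probes were detected and in ventral prostate 299, with 255 detected in both lobes, 34 in lateral prostate only, 44 in ventral prostate only and 345 in neither. The remaining probe, miR-26a, was marked as faulty in ventral prostate. Most detected miRNAs were dim, with a median signal of 190.9 in lateral and 181.7 in ventral prostate, and 71 in lateral and 69 in ventral prostate were above 4 times the limit. Just inside the limit were miR-324-3p, at 124.7 in lateral prostate, and miR-544, at 124.2 in ventral prostate. Just outside were miR-874, at 124.5 in lateral prostate, and miR-337*, at 123.9 in ventral prostate.

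MiR-26a, with a faulty ventral spot and a lateral signal of 8497, was left out when the brightest probes were picked. The brightest spots of the other probes were nearly the same set in the lobes, since 9 of the 10 brightest were shared. In lateral prostate these were led by miR-200b, with a signal of 24427, and miR-200a, with 23839, followed by miR-21 with 18777. In ventral prostate miR-21, a miRNA abundant in many tissues and in tumours, came first with 21101, followed by miR-200b with 17969 and miR-200a with 16779. Not shared were let-7c, the fourth brightest in lateral prostate and at rank 17 in ventral prostate, and let-7f, at rank 10 in ventral prostate. A probe's brightness depends on its own binding as well as on the amount of its miRNA, so these ranks describe spots, not amounts. Across the 255 shared miRNAs the normalized log2 levels of lateral and ventral saline had a Pearson correlation of 0.98, a description over miRNAs that share both arrays.

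The labelled tissue was set against marker miRNAs of cell types. All 8 epithelial markers were detected in both lobes, as were all 5 of smooth muscle and fibroblasts, both of endothelium, and miR-205 and miR-203 of basal and squamous epithelium. The liver miRNA miR-122 had signals of 110.3 in lateral and 93.1 in ventral prostate, and the neuronal miR-124 had 105.0 and 98.5, all below the limit. The other fixed neuronal marker, miR-9, was detected, with 270 in lateral and 317 in ventral prostate. It is also listed as neuroendocrine, and miR-375 and miR-7a of that list were detected in both lobes too. All 5 leukocyte markers on the array were detected in both lobes. Of the 4 striated muscle markers, 3 were detected in both and miR-1 in lateral prostate only. The prostate label thus had its epithelial and stromal markers, and the fixed lists held no miRNA chosen as a marker of 1 lobe.

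Set against ventral prostate under saline, 3 of the 255 miRNAs detected in both lobes were at least 2-fold higher in lateral prostate (1.18%) and 1 was at least that much lower (0.392%), together 1.57%. The higher ones were let-7c, the muscle miRNA miR-133b and miR-30e*, from the less abundant strand of its precursor, and the lower one was miR-223, a miRNA of neutrophils and other myeloid cells. At 1.5-fold, 9 were higher (3.53%) and 5 lower (1.96%), together 5.49%. The OBP-801 pair had 2 of 271 at least 2-fold higher (0.738%) and 1 lower (0.369%), together 1.11%, and at 1.5-fold 11 higher (4.06%) and 7 lower (2.58%). Of the 255 saline differences, 114 were above 0 and 141 below, the background for the counts by list that follow. Their median was -0.04 on the log2 scale and their robust SD, from the median absolute deviation, was 0.25. Of them, 90% lay between -0.53 and 0.44. This spread mixes lobe, animal and array, which 1 array a lobe does not separate.

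**Figure D1:**
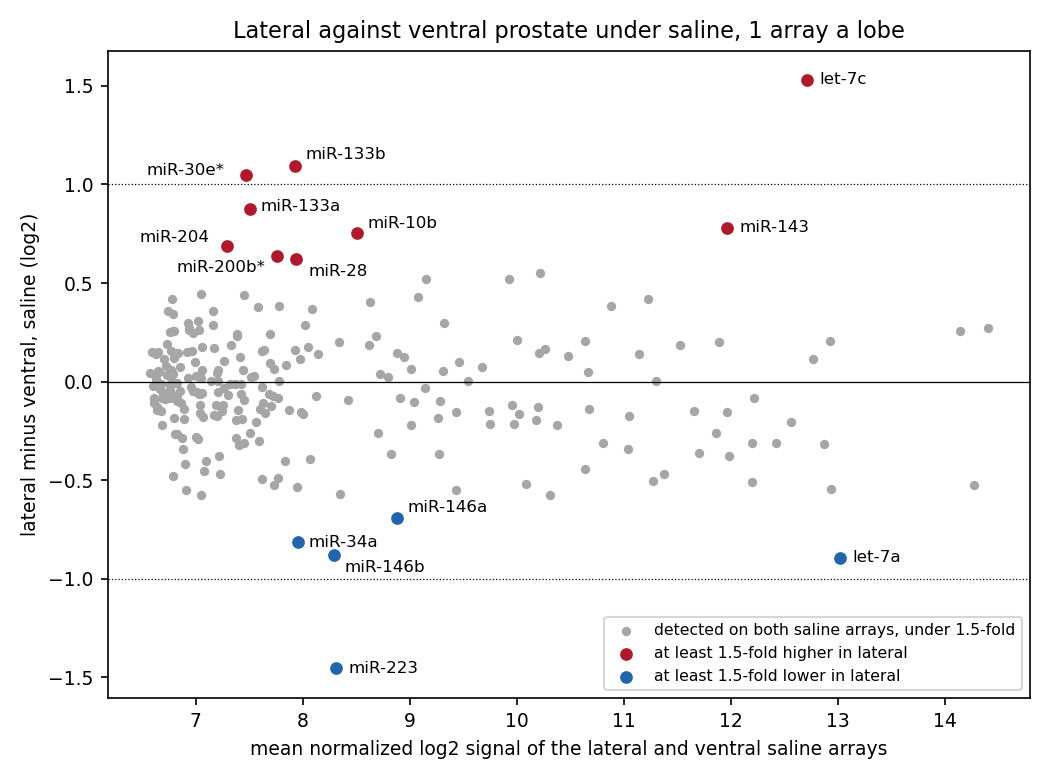
Log2 difference of lateral minus ventral prostate under saline (y axis) against the mean log2 level of both arrays (x axis) for the 255 miRNAs detected in both, 1 point per miRNA, with dotted lines at 2-fold and the named miRNAs labelled. Most points lie near 0, and let-7c at 1.53, miR-133b at 1.09 and miR-30e* at 1.05 stand above, with miR-223 at -1.46 below.

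Of the striated muscle miRNAs, miR-133b, miR-133a and miR-1 had more signal in lateral than in ventral prostate on both pairs, and miR-206 had less under saline. MiR-133b, which with miR-133a represses regulators of muscle genes, had signals of 375 in lateral and 189 in ventral prostate under saline, and of 523 in lateral and 211 in ventral prostate under OBP-801. Its normalized log2 difference was 1.09 under saline, or 2.14-fold, and 1.10 under OBP-801. MiR-133a had 288 in lateral and 163 in ventral prostate under saline, and 279 and 159 under OBP-801, differences of 0.88 and 0.59. Under both agents the lateral spot of each was the brighter. MiR-1, which favours muscle differentiation, was detected in lateral prostate only, with 193 against 109 under saline and 200 against 99 under OBP-801. Set against the lowest detected level of the ventral saline array, it was at least 1.78-fold higher in lateral prostate, and this was the largest of the bounds. MiR-206, the form with the seed of miR-1, had 149 in lateral and 166 in ventral prostate under saline, a difference of -0.28, and 148 and 107 under OBP-801, where the ventral value was below the limit of its array. Of the 4 fixed striated muscle markers, 3 were thus detected in both saline lobes, 2 above 0 and 1 below, with a median difference of 0.88 against -0.04 for all 255. Their summed signal above the blank level was 588 in lateral and 219 in ventral prostate under saline, and 713 in lateral and 175 in ventral prostate under OBP-801. Sums of this kind were not normalized between arrays, and most of the fixed lists had the higher sum in lateral prostate on both pairs. In such bulk samples more cells of a type and more RNA per cell cannot be told apart. In RefSeq miR-133b lies at chr9:30594582-30594665 on the plus strand of GRCr8 and miR-206 at chr9:30590697-30590780, so these neighbours differed in opposite directions under saline, while miR-1 and miR-133a lie within the span of Mib1 on chromosome 18.

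**Figure D2:**
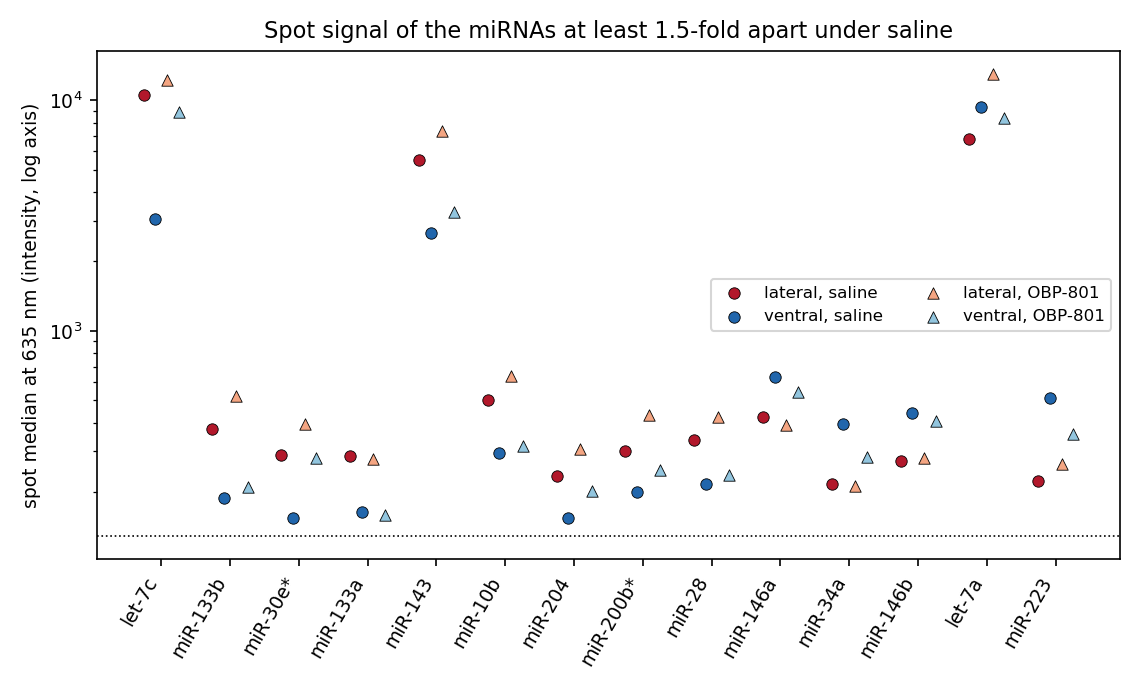
Spot signal in the red channel (log axis) of the 14 miRNAs at least 1.5-fold apart under saline, 1 point per array for lateral and ventral saline and for lateral and ventral OBP-801, with a dotted line at the highest detection limit of the 4 arrays. The lateral point lies above the ventral one under both agents for miR-133b (375 against 189 and 523 against 211), and below it under both for miR-223 (224 against 509 and 264 against 356).

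The smooth muscle and fibroblast markers lay on both sides of 0. MiR-143, which acts in smooth muscle with miR-145, had signals of 5500 in lateral and 2662 in ventral prostate under saline, and 7378 and 3267 under OBP-801. Its differences were 0.78 and 0.63, and the lateral spot was the brighter under both agents. MiR-145, which lies near miR-143 within the span of the Carmn host transcript on chromosome 18, had 2821 in lateral and 2888 in ventral prostate under saline, a difference of -0.36 that ranged from -0.37 to 0.08 over the alternative settings. Under OBP-801 it had 8084 and 3148, a difference of 1.09. The minor arm miR-143* had a saline difference of -0.50, opposite to its major arm. Averaged over the saline and OBP-801 pairs, the difference of miR-143* was -0.20. Of the 5 markers in this list, 2 were above 0 and 3 below, with a median of -0.10 under saline and 0.00 under OBP-801, and only miR-143 passed 1.5-fold under saline. Their summed signal above blank, not normalized between arrays, was higher in lateral prostate on both pairs, as it was for most lists. It was 9288 in lateral and 6569 in ventral prostate under saline, and 17183 and 7788 under OBP-801. Beside the muscle values, the endothelial miR-126 had a difference of 0.14 under saline and 0.09 under OBP-801. The erythroid miR-451 had 0.16 under saline and 0.75 under OBP-801, where it too was higher in lateral prostate, and what part these cells had in the muscle miRNAs was not tested.

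Of the 5 leukocyte markers on the array, 4 had less signal in lateral than in ventral prostate under saline and 1, miR-150, had more. MiR-223 had 224 in lateral and 509 in ventral prostate under saline, and 264 and 356 under OBP-801. Its differences were -1.46, or 2.74-fold lower in lateral prostate, and -0.84. MiR-146a, which restrains inflammatory signalling through the NF-κB pathway, had 424 in lateral and 628 in ventral prostate under saline, and 389 and 541 under OBP-801, differences of -0.69 and -0.96. MiR-146b, with the same seed, was not in the fixed leukocyte list and had 272 and 438 under saline, and 280 and 406 under OBP-801, differences of -0.88 and -0.88. On each pair the ventral spot of these 3 was the brighter. The blood cell miRNA miR-142-5p had 205 in lateral and 271 in ventral prostate under saline (-0.53), and its other arm miR-142-3p had 135 and 160 (-0.42), close to the limit. MiR-150, of mature lymphocytes, had 249 and 223, a difference of 0.09 under saline and of -0.48 under OBP-801. The 5 had a median difference of -0.53 under saline and also -0.53 under OBP-801, and under saline 1 was at least 2-fold lower and 2 at least 1.5-fold lower. Their summed signal above blank, not normalized between arrays, was 716 in lateral and 1281 in ventral prostate under saline, and 672 and 1003 under OBP-801.

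Among other miRNAs lower in lateral prostate was miR-34a, a transcriptional target of p53 in human and mouse cells. It had 216 in lateral and 394 in ventral prostate under saline, and 213 and 282 under OBP-801, differences of -0.82 and -0.87. It was the 1 member of 10 in the list of miR-34 and miR-449 detected in both lobes. MiR-221 and miR-222, neighbours on chromosome X that repress the cell cycle inhibitor p27, were lower by less than 1.5-fold, with -0.57 and -0.47 under saline and -0.57 and -0.49 under OBP-801. MiR-3584-5p had -0.55 under saline and -0.54 under OBP-801, and miR-17-5p, of the proliferation-associated miR-17-92 cluster, -0.55 and -0.40. MiR-21 had -0.53 and -0.25, and its saline difference ranged from -0.54 to -0.05 over the alternative settings. Of the 16 detected members of miR-17-92 and its paralogues, 7 were above 0 and 9 below, against 114 and 141 of all 255. Their median was -0.12, with none at 1.5-fold.

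Of 11 fixed miRNAs of the Hox clusters, 5 were detected in both saline lobes, 1 in lateral prostate only, 1 in ventral prostate only and 4 in neither. The 5 were above 0 under saline, and only miR-10b passed 1.5-fold. MiR-10b, which lies within the span of Hoxd4 at chr3:80035859-80035967 (plus strand, GRCr8), had signals of 502 in lateral and 295 in ventral prostate under saline, and 636 and 316 under OBP-801. Its differences were 0.76 and 0.80. MiR-10a-5p had 1587 and 981 under saline, a difference of 0.55, and 1304 and 1033 under OBP-801, a difference of -0.16. The median of the 5 was 0.40 under saline and 0.16 under OBP-801, though miR-10a-3p was not detected in both lobes under OBP-801.

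MiR-195 and miR-497, processed from neighbouring hairpins 255 bases apart on chromosome 10, had equal saline differences of 0.52 and 0.52. MiR-195, which restrains cell cycle genes, had 1350 in lateral and 770 in ventral prostate under saline, and 1731 and 812 under OBP-801. The OBP-801 differences were 0.56 for miR-195 and 0.43 for miR-497. MiR-16, with the same seed, had -0.32 and -0.23, so members of 1 seed family lay on both sides of 0, though miR-16 turned positive under 3 of the alternative settings. MiR-15b had 0.38 under saline and -0.53 under OBP-801. Over the 5 detected of 10 members the median was 0.38 under saline and -0.01 under OBP-801.

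Under saline no epithelial marker was 1.5-fold apart. MiR-200a had a difference of 0.26 under saline and 0.79 under OBP-801, miR-200b 0.27 and 0.00, and miR-429, of the same cluster, 0.42 and 0.57. The second cluster of the family had -0.09 and 0.20 for miR-200c and 0.00 and 0.45 for miR-141. These miRNAs hold the epithelial state by repressing the ZEB factors. The minor arm miR-200b* had 302 in lateral and 200 in ventral prostate under saline, and 434 and 250 under OBP-801, differences of 0.64 and 0.66. Of the 8 epithelial markers 5 were above 0 and 3 below under saline, with a median of 0.01, and under OBP-801 the median was 0.24. MiR-182, of the cluster with miR-183 and miR-96, had signals of 479 in lateral and 497 in ventral prostate under saline (-0.08), and of 260 and 429 under OBP-801 (-1.21), the lowest difference of that pair. MiR-183 had 0.03 under saline and -0.10 under OBP-801, and miR-96 had -0.03 and 0.28. The summed signal of the 8 above blank, not normalized between arrays, was 58551 in lateral and 42860 in ventral prostate under saline, and 75390 and 34937 under OBP-801. Most other lists also had a higher such sum in lateral prostate under OBP-801. MiR-200b alone had signals of 38562 in lateral and 16479 in ventral prostate under OBP-801, where its normalized difference was 0.00. The basal cell miRNA miR-205 had -0.37 under saline and -0.41 under OBP-801. The 10 detected androgen-responsive miRNAs, a list from human prostate cells, had 2 above 0 and 8 below, against 114 and 141 of all 255. Their median was -0.15, with none at 1.5-fold. MiR-100 and miR-125b-5p of this list, at -0.13 and -0.15, changed sign under some of the alternative settings.

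**Figure D3:**
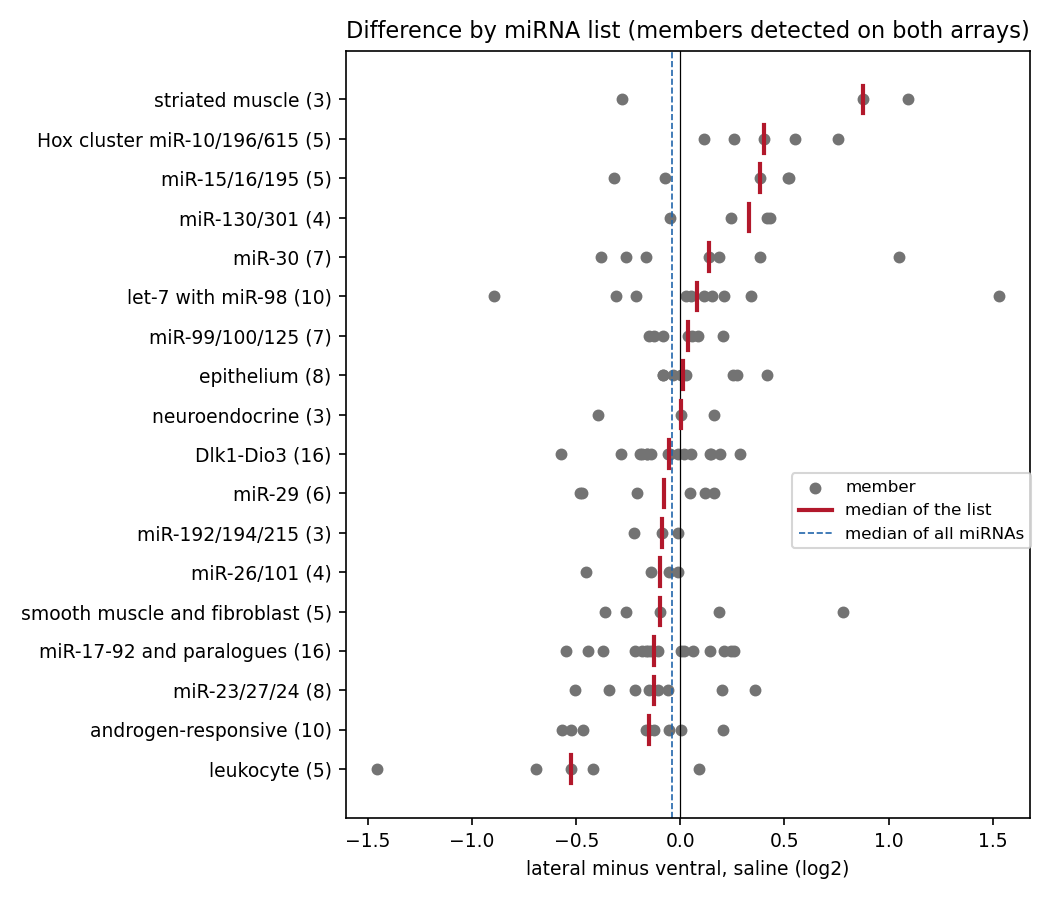
Log2 difference of lateral minus ventral prostate under saline for the lists with at least 3 members detected in both lobes, 1 point per miRNA, with a bar at the list's median and a dashed line at the median of all 255. Striated muscle has the highest median of the marker lists with at least 3 detected members, at 0.88, and leukocytes the lowest, at -0.53, while epithelium lies at 0.01.

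The let-7 family, which represses growth genes, held members far apart on both sides. Let-7c had 10588 in lateral and 3068 in ventral prostate under saline, a difference of 1.53 or 2.89-fold, and 12202 and 8922 under OBP-801, a difference of -0.18. Let-7a had 6762 and 9331 under saline, a difference of -0.90, and 13022 and 8397 under OBP-801, a difference of 0.18. Over the alternative settings the saline difference ranged from 1.47 to 1.92 for let-7c and from -0.90 to -0.35 for let-7a. Let-7c and let-7a had opposite normalized lobe differences between the pairs, though the let-7c spot was brighter in lateral prostate under both agents. Under OBP-801 quantile normalization gave both probes the levels 13.03 and 13.21, in opposite order between the lobes. The low ventral saline spot of let-7c stood apart from the other 3 arrays. MiR-99a, the neighbour of let-7c on chromosome 11, had a saline difference of 0.20. Let-7f and let-7d, neighbours of let-7a on chromosome 17, had -0.31 and 0.21. Of 17 probes for let-7 and miR-98, 10 were detected in both lobes, 7 above 0 and 3 below, with a median of 0.08.

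Of the 9 miRNAs at least 1.5-fold higher in lateral prostate, 3 lay near a spot marked as faulty. MiR-26a, the 1 miRNA spot marked as faulty, had a ventral saline signal of 2479 against 8497 in lateral saline, and 10374 and 6198 under OBP-801, and was left out. MiR-28, miR-204 and miR-30e* lay in the same print block within 2 columns and 1 row of it. Of the 8 miRNAs within that distance detected in both saline lobes, which include these 3, 7 were above 0. Their median difference was 0.24, against -0.05 over the other 247 and -0.03 over the 11 others of that block. MiR-30e* had 290 in lateral and 154 in ventral prostate under saline (1.05), and 395 and 281 under OBP-801 (0.21). Its major arm miR-30e had -0.16 under saline and 0.32 under OBP-801, where both arms were thus higher in lateral prostate. MiR-204, which lies within the span of Trpm3 in RefSeq, had 235 and 154 under saline (0.69), and 309 and 202 under OBP-801 (0.36). MiR-28, within the span of Lpp, had 335 and 217 under saline (0.62), and 422 and 238 under OBP-801 (0.69), where no spot was marked faulty. Let-7c lay in another print block. Without the spots near miR-26a, a setting chosen after seeing the data, 2 miRNAs were at least 2-fold higher and 6 at least 1.5-fold higher in lateral prostate. Whether the spot area set these differences was not tested.

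The pair under OBP-801 gave the same side for most of the larger differences. All 14 miRNAs at least 1.5-fold apart under saline were detected on all 4 arrays, 12 of them had the same sign under OBP-801, and 10 were at least 1.5-fold apart the same way, where 6.64% of all miRNAs of the OBP-801 pair were at least 1.5-fold apart either way. The exceptions in sign of the normalized difference were let-7c and let-7a, though the let-7c spot was brighter in lateral prostate on both pairs. Over the 242 miRNAs detected on all arrays, 148 had the same sign under both agents and 12 had a difference of exactly 0 on either pair, which quantile normalization gives to equal ranks. The differences of the pairs had a Pearson correlation of 0.50 over these 242, as a description, and 0.56 over 231 without let-7 and miR-98. The pairs share no array. If a code that the lateral arrays share, and another that the ventral arrays share, marks a slide, slide and lobe cannot be told apart.

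**Figure D4:**
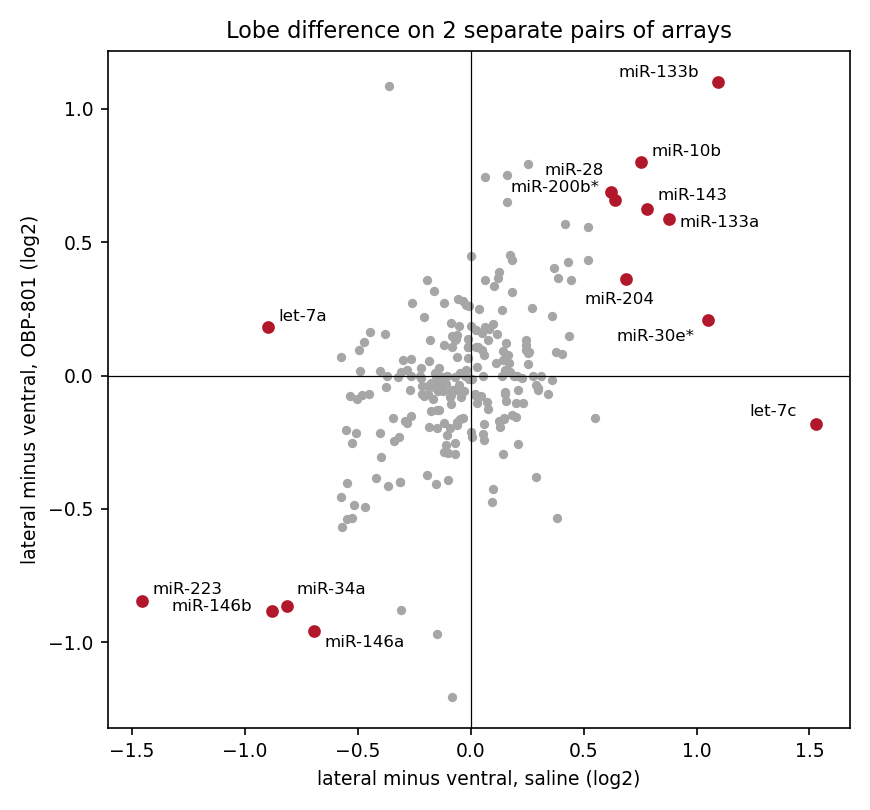
Log2 difference of lateral minus ventral prostate under OBP-801 (y axis) against that under saline (x axis), 1 point per miRNA for the 242 detected on all 4 arrays. MiR-133b lies at 1.09 and 1.10 and miR-146b at -0.88 and -0.88, while let-7c lies at 1.53 under saline and -0.18 under OBP-801.

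An additive fit over all 4 arrays, with lobe as the term and agent as a block, was the comparison with a residual degree of freedom. At an adjusted p of 0.05 it called 0 of 242 miRNAs (limma, Benjamini-Hochberg, 0% of those tested), while 17 were higher and 23 lower at an unadjusted p of 0.05 (16.5%). The smallest adjusted p was 0.0898, at which 8 miRNAs tied, and 14 had an adjusted p under 0.1 (5.79%). The 8 were miR-133b, with a lobe difference of 1.10 (SE 0.087), miR-10b, miR-143, miR-28 and miR-200b* on the lateral side, and miR-146b, with -0.88, miR-34a, with -0.84, and miR-146a, with -0.82, on the ventral side. Each had the same direction on 2 of 2 pairs, which the fit favours because its residual is the difference between the pairs. The count depended on the processing, with 24 higher and 4 lower without normalization between arrays.

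Some miRNAs were detected in 1 lobe only. After miR-1, the largest values on the lateral side were 1.25-fold for miR-138, at least 1.25-fold for miR-351* and at least 1.21-fold for miR-145*. On the ventral side they were 1.29-fold for miR-18a*, 1.28-fold for miR-598-5p, at least 1.27-fold for miR-3074 and at least 1.16-fold for miR-3584-3p. For miR-138, miR-18a* and miR-598-5p the undetected spot had a normalized level above the lowest detected one of its array. Their values are therefore plain differences, not bounds. Of the 34 detected under saline in lateral prostate only, 19 were detected in lateral and 16 in ventral prostate under OBP-801. Of the 44 in ventral prostate only, 20 were detected in lateral and 15 in ventral prostate under OBP-801. Over all 679 probes, 329 were detected in lateral and 290 in ventral prostate under OBP-801, where the limits were 129.1 and 116.4. Under saline 56 detected probes in lateral and 64 in ventral prostate lay within 10 units above the dimmest detected spot. Whether detection in 1 saline lobe marks that lobe was not tested.

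Of 58 precursors with 2 arms detected in both saline lobes, 35 had arms of the same sign, and in 2, those of miR-143 and miR-30e, the arms differed by at least 1 log2 unit. Among 97 probes for miRNAs of the imprinted Dlk1-Dio3 region, a large cluster active in embryo and muscle, 16 were detected in both lobes. Of these, 6 were above 0 and 10 below, against 114 and 141 of all 255, with a median of -0.05. Among the other families the median was 0.23 over the 2 detected members of miR-181, -0.03 on the OBP-801 pair, and under saline 0.14 over 7 members of miR-30, -0.13 over 8 of miR-23/27/24 and -0.10 over 4 of miR-26 and miR-101, while miR-130 and miR-301 had 0.33 over 4 members, of which 0 passed 1.5-fold. It was -0.08 over 6 members of miR-29 and 0.04 over 7 of the miR-99 and miR-125 families. On the OBP-801 pair the same members had medians of 0.27 for miR-30, -0.19 for miR-23/27/24 and 0.07 for miR-26 and miR-101. That pair had 0.06 for miR-130 and miR-301, 0.10 for miR-29 and 0.00 for the miR-99 and miR-125 families. Of these members, miR-301b, miR-29b-2* and miR-125b* were not detected in both lobes under OBP-801.

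For bright miRNAs the side of a small difference depended on the scaling. The 65 miRNAs at or above 4 times the limit in both lobes had a median of -0.14 after quantile normalization and of 0.12 with each array centred on its median, and the other 190 had -0.02 and -0.02. With no normalization the 65 had 0.13, and scaling on the spike controls, which moved the median of all miRNAs to 0.14, gave 0.25. The 14 miRNAs at 1.5-fold kept their sign under each of these scalings.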

How the data were processed

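Red-channel spot intensity and local background intensity were taken from the deposited scanner files, per the file headers, in which neither is normalized; the scanner software and the array's maker were not given in the sources used here. RNA was extracted from prostate and labelled with Hy5, per the labels' protocols. The deposited value table holds intensity values processed by the authors in steps that no label states; it was put on the log2 scale and used as an alternative. Here limma 3.58.1 in R 4.3.3 corrected the background of all spots by normexp (offset 50), 1 faulty spot was set missing, and log2 values of 679 miRNA probes were quantile-normalized over 4 arrays. The offset understates differences of dim miRNAs. The saline difference has no p-value, 1 array a group limits its precision, and called means at least 2-fold. The additive fit (lmFit, eBayes, Benjamini-Hochberg) had 1 residual and 2.54 prior degrees of freedom.

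Named were the 10 brightest miRNAs per saline array, up to 12 in each direction of at least 1.5-fold, the 4 largest bounds in each direction, up to 4 members of each list, and any call of the fit. MiR-143*, miR-30e and the miRNAs at the detection limit or near the faulty spot were named after their values were seen. Members and lists were chosen with earlier results of these data known. Names follow the array, with arms matched to RefSeq names by hand.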

Additional observations from a re-analysis of the deposited data

Results flagged for a closer look

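Let-7c and let-7a had opposite normalized lobe differences on the pairs of arrays, though the let-7c spot was brighter in lateral prostate on both. The log2 difference of lateral minus ventral prostate was 1.53 under saline and -0.18 under OBP-801 for let-7c, and -0.90 under saline and 0.18 under OBP-801 for let-7a. Over the alternative settings the saline difference of let-7a ranged from -0.90 to -0.35, and that of let-7c from 1.47 to 1.92. The difference between the agents was not tested, because each group has 1 array.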

How the results depend on the processing

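No paired analysis was possible because each group has 1 array and no replicate number; the additive fit has agent as its block. At 2-fold, 3 miRNAs were higher and 1 lower in lateral prostate as reported, against 1 higher with no background correction, 7 higher and 6 lower after subtraction of the blank level without an offset, 5 higher with spike control scaling, 1 higher and 2 lower with cyclic loess, 6 higher and 13 lower in the authors' deposited value table, 1 higher and 0 lower with the filter at 4 times the limit, and 9 higher and 5 lower at 1.5-fold. Less the median of all miRNAs, the striated muscle median was 0.92 as reported, 1.502 after subtraction of the blank level and 1.52 in the deposited table, and the leukocyte median was -0.49, -0.82 and -0.80. That of the list led by miR-192 was -0.05, -0.38 and -0.46, and that of miR-30 was 0.18 as reported and -0.13 with the brighter arm only. The additive fit called 0 higher and 0 lower at an adjusted p of 0.05, against 10 higher and 10 lower with no background correction, 10 and 9 with median centring, 24 and 4 with no normalization, 13 and 18 with cyclic loess, 5 and 4 after removal of print block medians, and 2 and 0 with no filter. The causes were not tested. The numbers of miRNAs detected per saline array stayed within 1.5 times those reported under the 3 other limits. The 14 miRNAs at 1.5-fold kept their sign under the 12 alternatives wherever they were compared, which under the filter at 4 times the limit was 3 of them. That filter, the setting with no filter and the limit from negative controls changed only which miRNAs were compared. Their differences were those reported, so no sign could change there. The other alternatives processed the same arrays in another way.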
